A study of Mus musculus with 9 samples.

Results

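The genes described are the nuclear-encoded subunits of the mitochondrial respiratory chain, taken by name from the deposited table of mouse liver. The names used were those starting with Nduf followed by a, b, c, s or v and a digit (complex I), the Sdh genes a to d (complex II), those starting with Uqcr (complex III), those starting with Cox and a digit from 4 to 8 (complex IV) and those starting with Atp5 (complex V), with 3 pseudogene names left out. This gave 84 of 35275 entries, with 37 in complex I, 4 in complex II, 8 in complex III, 18 in complex IV and 17 in complex V. A total of 78 had enough counts to be tested, and 6, all paralogs in complex IV, did not. The names do not match the complexes exactly: Ndufa4 is now regarded as a subunit of complex IV, Cox7a2l takes part in the assembly of supercomplexes, and Atp5s and Atp5sl, called Dmac2l and Dmac2 in RefSeq, are not counted among the core subunits of the synthase.

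The respiratory chain passes electrons from NADH (complex I) and succinate (complex II) through complex III to complex IV, where oxygen is reduced, and complex V uses the resulting proton gradient to make ATP. Complexes I, III, IV and V combine subunits encoded in the nucleus with subunits encoded in mitochondrial DNA, whereas all subunits of complex II are nuclear. In the liver the chain takes up the electrons of fatty acid oxidation and supplies ATP for gluconeogenesis and urea synthesis.

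The series holds 9 RNA-seq libraries of liver from C57BL/6 mice: 3 from vehicle-treated mice, 3 from mice given AdipoRon, a synthetic compound that activates adiponectin receptors, and 3 from mice given AdipoRonPEG5, a PEGylated analog of AdipoRon. The study asked how the PEGylated compound, the parent compound and the vehicle differ in their effect on the liver. The labels give injections 2 times a day for 5 days at 5 mg/kg, in a sentence that covers PBS as well as the compounds, so the doses are uncertain. The title speaks of insulinopenic and high fat diet conditions, but the labels of these livers state no diet, insulin status, age or sex, and do not say that the libraries of a group came from separate animals. The p-values therefore measure the spread between these libraries, which may be technical.

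The libraries held 13942322 to 18508950 counts, apart from vehicle 1 with 39473195, and the 84 genes took 1.43% to 1.61% of the counts. Hepatocyte markers summed to between 70404 and 94240 CPM (counts scaled to a common library size) in every library, whereas 6 of 8 skeletal and heart muscle markers had no count in any library. In tissue RNA, fewer cells of a type and less RNA per cell cannot be told apart. Many subunit genes have processed pseudogenes and close paralogs, and how reads that fit several places were counted is not given, nor is the strand setting, so reads of such copies and of overlapping genes may be shared.

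The subunit genes were among the more abundant messages of the liver. Their median level was 137 FPKM (fragments scaled to gene length and library size, used here for levels between genes), against 4.45 FPKM over all 13151 tested genes, and 54 of the 78 tested members exceeded 100 FPKM. In each complex the highest mean over the 9 libraries belonged to Ndufa4 in complex I (703 FPKM), Sdhb, the iron-sulfur subunit of complex II (182 FPKM), Uqcr11 in complex III (367 FPKM), Cox6a1 in complex IV (958 FPKM) and Atp5b, the catalytic beta subunit of complex V (655 FPKM). Complex medians lay between 106 FPKM in complex I and 284 FPKM in complex IV. Replicates were close: the median SD within a group was 0.076 on the log2 scale for the members and 0.17 over all tested genes. The lowest tested member was Ndufb2 at 0.758 FPKM, a membrane-arm subunit of complex I named after its value was seen; the gene length behind its FPKM is 4371 bases, against a median of 967 bases for the tested members and 3032 bases for all tested genes.

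Where a subunit is encoded by paralogs, the form known from most tissues prevailed over the form known from muscle, lung or testis in all 9 libraries. Cox4i1, a regulatory subunit of complex IV, was at 398 to 496 FPKM and Cox4i2, its lung-type form, at 0 to 0.286 FPKM. Cox6a1 was at 869 to 1020 FPKM and Cox6a2, its heart and muscle form, at 0 to 1.11 FPKM. Cox8a was at 475 to 572 FPKM and its muscle form Cox8b at 0 to 0.396 FPKM, with no count of Cox8c in any library. The order was the same in every library for Cox6b1 (379 to 483 FPKM) over its testis form Cox6b2 (0.214 to 1.56 FPKM) and for Cox7b (139 to 205 FPKM) over Cox7b2, which had a single read in all. Cox7a2 (151 to 191 FPKM) stood above Cox7a2l (64.8 to 81.5 FPKM), and Cox7a2l above the muscle form Cox7a1 (2.24 to 7.55 FPKM). Ndufa4 stood at 609 to 814 FPKM and the hypoxia-linked Ndufa4l2 at 0.924 to 2.19 FPKM. The genes Atp5g1, Atp5g2 and Atp5g3 encode the same mature protein of the proton-carrying ring of complex V. Their ranges did not overlap: 494 to 572 FPKM for Atp5g3, 116 to 142 FPKM for Atp5g2 and 41.9 to 50.8 FPKM for Atp5g1, whose length behind the FPKM is 4715 bases. Between the treatment groups, none of the muscle, lung or testis forms passed a test, since Cox4i2, Cox6a2, Cox6b2, Cox7b2, Cox8b and Cox8c had too few counts and Cox7a1 did not pass. Without the filter on low counts, Cox6a2 was called higher with AdipoRonPEG5 than with vehicle (edgeR adjusted p = 0.00105), at 8, 11 and 12 counts in the 3 AdipoRonPEG5 libraries and none in vehicle.

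**Figure D1:**
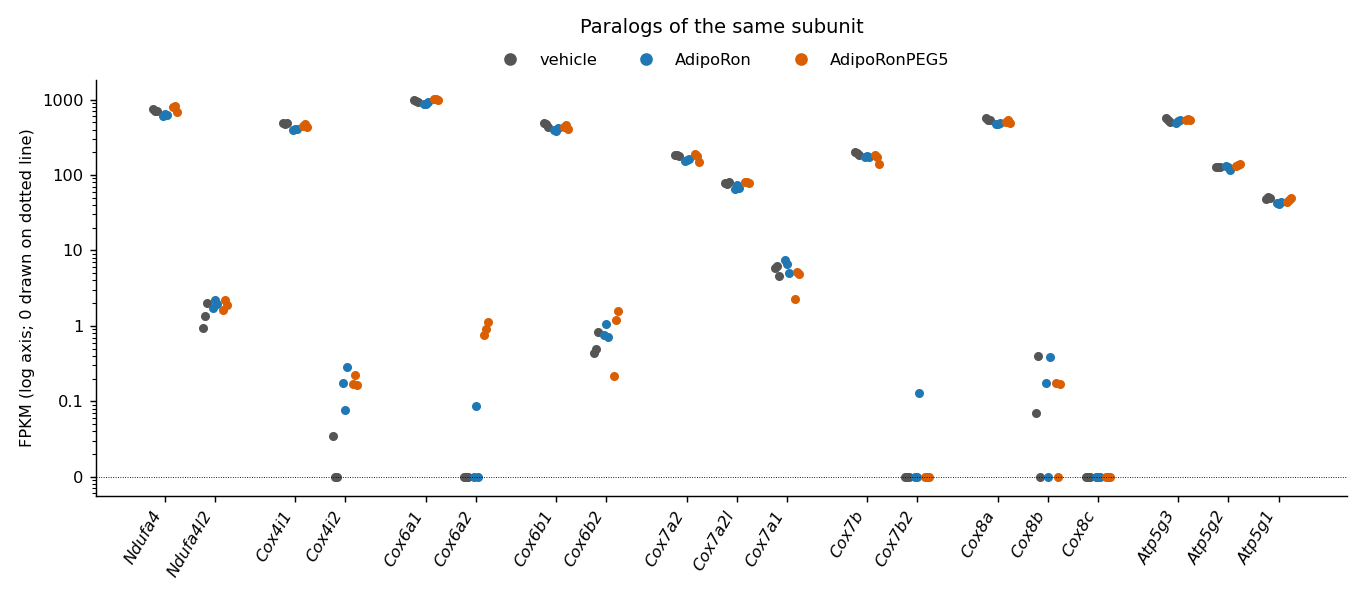
FPKM (log axis, 0 drawn on the dotted line) of paralogs that encode forms of the same subunit, with 1 point per library and 3 libraries in each of the vehicle, AdipoRon and AdipoRonPEG5 groups. In each set the first gene is the highest in every library, for example Cox6a1 at 869 to 1020 FPKM beside Cox6a2 at 0 to 1.11 FPKM.

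Nuclear respiratory chain genes are known to share binding sites of NRF1, of ETS factors such as GABP, of YY1 and of the estrogen-related receptor ERR-alpha near their start. The 250 bases before the RefSeq start (GRCm38.p6) of 5 members are shown because 4 of them fell with a compound, as described further on, and Atp5b, the last, is the most abundant member of complex V and did not pass in any comparison. Capitals mark matches, on either strand, to GCGCNTGCG (NRF1) and CCGGAAG (ETS), where N is any base; AAGATGGCG (YY1) and TCAAGGTCA (ERR-alpha) had no match in these 5 windows.
Ndufa7 (chr17:33824322-33824571, plus strand): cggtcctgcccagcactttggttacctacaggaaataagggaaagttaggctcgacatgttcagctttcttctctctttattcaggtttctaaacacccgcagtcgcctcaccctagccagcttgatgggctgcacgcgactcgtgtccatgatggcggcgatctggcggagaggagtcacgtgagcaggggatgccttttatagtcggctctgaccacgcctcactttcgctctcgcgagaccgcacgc
Ndufb7 (chr8:83566508-83566757, plus strand): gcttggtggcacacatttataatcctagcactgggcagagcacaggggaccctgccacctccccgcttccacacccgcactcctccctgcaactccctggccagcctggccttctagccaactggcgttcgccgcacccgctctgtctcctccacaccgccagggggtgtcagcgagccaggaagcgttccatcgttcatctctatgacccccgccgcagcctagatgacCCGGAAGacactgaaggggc
Atp5k (chr5:108434400-108434649, minus strand): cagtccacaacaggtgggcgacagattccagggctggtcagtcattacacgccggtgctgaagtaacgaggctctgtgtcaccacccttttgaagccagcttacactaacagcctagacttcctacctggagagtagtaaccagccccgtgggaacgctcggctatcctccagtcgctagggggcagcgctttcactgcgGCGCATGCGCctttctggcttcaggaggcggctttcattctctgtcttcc
Uqcrh (chr4:116075071-116075320, minus strand): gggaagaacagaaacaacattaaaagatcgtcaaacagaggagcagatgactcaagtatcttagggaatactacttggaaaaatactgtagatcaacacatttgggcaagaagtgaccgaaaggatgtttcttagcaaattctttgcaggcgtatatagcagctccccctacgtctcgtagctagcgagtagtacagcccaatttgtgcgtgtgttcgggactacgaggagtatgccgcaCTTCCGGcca
Atp5b (chr10:128083057-128083306, plus strand): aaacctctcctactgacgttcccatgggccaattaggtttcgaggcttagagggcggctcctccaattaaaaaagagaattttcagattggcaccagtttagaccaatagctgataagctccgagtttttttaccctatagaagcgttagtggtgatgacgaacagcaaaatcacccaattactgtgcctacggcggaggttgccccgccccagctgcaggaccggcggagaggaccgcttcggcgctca

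The capitals in Atp5k are 2 overlapping NRF1 matches, 1 on each strand, since the run reads the same on both, and those in Ndufb7 and Uqcrh are ETS matches. Of the 84 members, 69 had a window in the RefSeq table, some with more than 1 start, and a member was counted when any of its windows held a match. The NRF1 letters were present in 17 of 69 members (24.6%), in 12.2% of the 9633 tested genes with a window and in 5.88% of all 27025 genes with one. For the ETS letters the shares were 17.4% of members, 15.3% of tested genes and 7.83% of all genes. YY1 letters occurred in 2 members and ERR-alpha letters in 1. Among the 24 members with a window that fell in either comparison with vehicle, 5 held the NRF1 letters and 6 the ETS letters; among the other 42 tested members with a window, 12 and 6 did. These shares are descriptions of letters in a short window, with no test.

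The first question was what each compound did to these genes relative to vehicle. Genes of complexes I, III, IV and V fell with each compound, no member rose, and no gene of complex II passed. With AdipoRon, 22 of 78 tested members fell (28.2%; 1.40% of all tested genes were called lower and 3.80% higher), and with AdipoRonPEG5, 14 of 78 fell (17.9%; 7.63% of all tested genes were called lower and 9.55% higher). The median log2 fold change of the 78 members was -0.25 with AdipoRon and -0.14 with AdipoRonPEG5, against 0.0057 and -0.0013 over all tested genes. Values were below 0 for 72 members with AdipoRon and 73 with AdipoRonPEG5. Both comparisons use the same 3 vehicle libraries, so they are not independent. The lowest log2 fold change of a tested member against vehicle was -0.53, for Atp5k with AdipoRonPEG5.

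A call means an adjusted p under 0.05 in edgeR's quasi-likelihood test, with Benjamini-Hochberg adjustment across the 13151 tested genes. For the absence of rises, no member was higher at an unadjusted p of 0.05 in either comparison, by edgeR, DESeq2 or limma-voom. DESeq2 called 38 members lower with AdipoRon and 25 with AdipoRonPEG5, and limma-voom 27 and 21. Of all tested genes, DESeq2 called 2.78% and 8.39% lower, and limma-voom 1.62% and 7.85%. The counts depended on scaling. With library totals in place of TMM factors, 4 of 78 fell with AdipoRon, beside 0.487% of all tested genes. With AdipoRonPEG5, 2 of 78 fell, beside 4.44% of all tested genes. The medians over all genes moved to 0.10 with AdipoRon and 0.081 with AdipoRonPEG5. Relative to those medians the members stood at -0.25 and -0.14 under both scalings. That follows from the scaling, which shifts all genes of a library alike, and so is no check of the result. The share of all called genes that were higher went from 73.1% to 93.2% with AdipoRon and from 55.6% to 74.4% with AdipoRonPEG5 under library totals.

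The counts also depended on single libraries. With AdipoRon, the 22 became 6 without vehicle 1, 3 without vehicle 2, 3 without AdipoRon 1, 4 without AdipoRon 2, 9 without AdipoRon 3, 13 without AdipoRonPEG5 1 and 8 without AdipoRonPEG5 2. The share of all tested genes called lower was, in the same order, 0.584%, 0.320%, 0.530%, 0.308%, 0.650%, 0.972% and 0.623%. With AdipoRonPEG5, the 14 became 2 without vehicle 2, 4 without AdipoRonPEG5 2 and 6 without AdipoRonPEG5 3. Over the fits that left out 1 library the median log2 fold change stayed between -0.26 and -0.23 with AdipoRon and between -0.16 and -0.13 with AdipoRonPEG5.

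**Figure D2:**
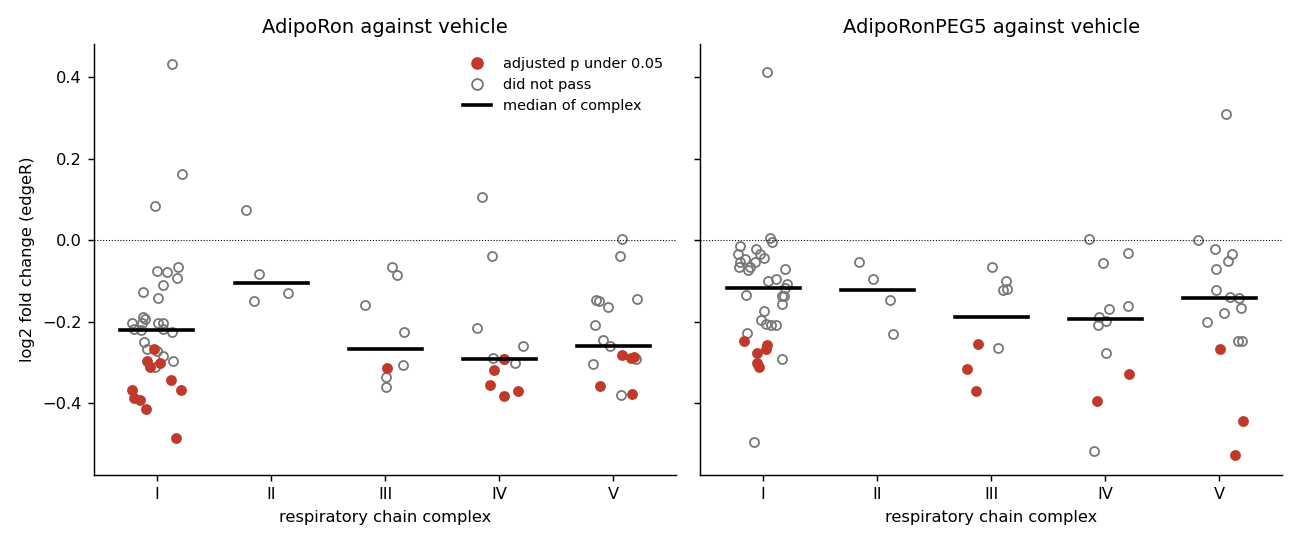
Log2 fold change from edgeR of each tested member, by complex, for AdipoRon (left) and AdipoRonPEG5 (right) against vehicle; filled points have an adjusted p under 0.05, open points did not pass, and black lines are the medians of the complexes. All filled points lie below 0, 22 on the left and 14 on the right, and complex II has none.

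Gene length moved with these results. Members are short, and a smooth trend on gene length, fitted in each library over all genes and removed, left the AdipoRonPEG5 count at 11 (10 of the 14 and 1 other) but took the AdipoRon count from 22 to 4 (3 of the 22 and 1 other). Of all tested genes, 7.73% were then lower with AdipoRonPEG5 and 0.677% with AdipoRon. Medians of the members became -0.096 with AdipoRon and -0.11 with AdipoRonPEG5, with 64 and 66 of 78 below 0. The 3 AdipoRon calls that held were Ndufa2, Ndufb7 and Cox6c, and 16 of the 22 called log2 fold changes became more than 1.5 times smaller, all 22 staying below 0. The lengths behind the FPKM of Ndufb7 and Cox6c are 4435 and 3038 bases, against a median of 967 bases for the tested members. Their values, -0.391 and -0.354 as fitted, became -0.449 and -0.355. Ndufa2, at 572 bases, went from -0.485 to -0.292. Of the 14 AdipoRonPEG5 calls, Atp5h, Uqcr11, Ndufa6 and Ndufa1 were lost, and 1 value became more than 1.5 times smaller. RNA quality was not tested. Of the 39 members at or below the median length, 13 fell with AdipoRon and 7 with AdipoRonPEG5, and of the 39 longer ones 9 and 7 did.

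**Figure D3:**
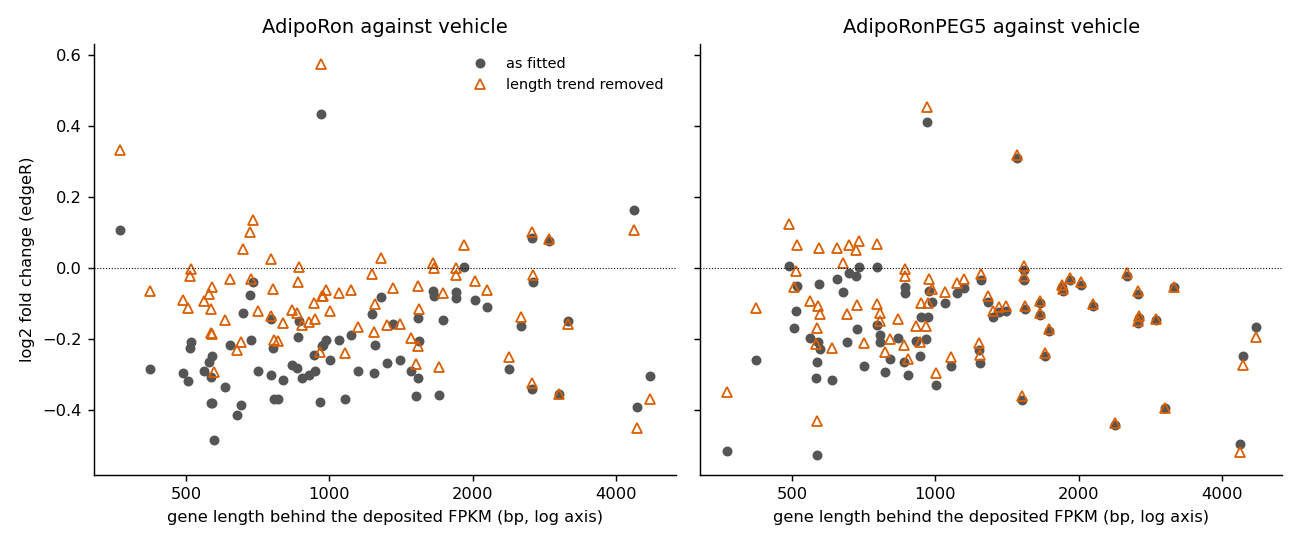
Log2 fold change of the 78 tested members against the gene length behind the deposited FPKM (bases, log axis), for AdipoRon (left) and AdipoRonPEG5 (right) against vehicle; filled circles are the values as fitted and open triangles those with the length trend of each library removed. With AdipoRon the median moves from -0.25 to -0.096, with AdipoRonPEG5 from -0.14 to -0.11.

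Summed levels show the same order of groups for complexes I, III, IV and V. On the TMM-scaled CPM, complex I summed to 4495 ± 28.9 in vehicle, 3808 ± 114 in AdipoRon and 4088 ± 76.5 in AdipoRonPEG5 livers (mean ± SD, n = 3), and every treated library was below every vehicle library. Complex IV summed to 3031 ± 7.74, 2474 ± 73.9 and 2669 ± 87.5, again without overlap with vehicle. Complex III summed to 1985 ± 25.7, 1685 ± 70.9 and 1704 ± 78.6, and complex V to 5539 ± 71.5, 5006 ± 85.6 and 5057 ± 89.3, each without overlap with vehicle. Complex II summed to 1139 ± 112, 1119 ± 47.5 and 1034 ± 41.3, and its groups overlapped. On CPM of the library total, complex V overlapped vehicle with both compounds and complex I with AdipoRonPEG5. Complex IV was barely apart there, with a highest AdipoRonPEG5 library of 2815.4 and a lowest vehicle library of 2817.1. On that scale the mean of complex II was 1149 in AdipoRon and 1094 in vehicle libraries. On the deposited FPKM, complexes I, IV and V overlapped vehicle with AdipoRonPEG5.

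**Figure D4:**
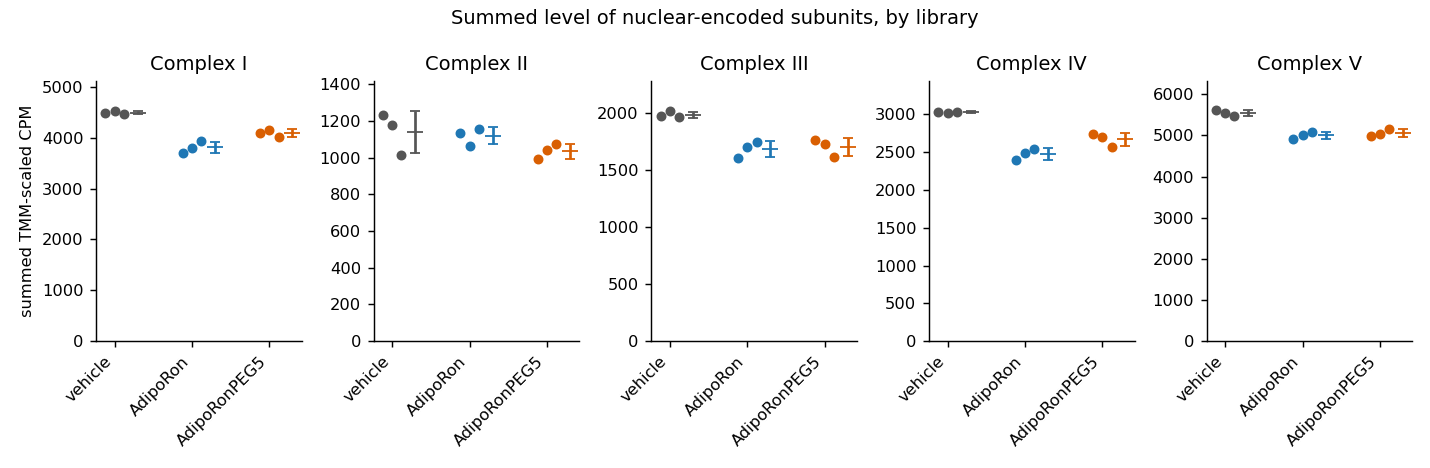
Summed TMM-scaled CPM of the members of each complex, with 1 point per library and the mean with SD of 3 libraries beside them, for vehicle, AdipoRon and AdipoRonPEG5 livers; each axis starts at 0. Complex I runs from 4467 to 4525 in vehicle, 3700 to 3927 in AdipoRon and 4007 to 4158 in AdipoRonPEG5 libraries, whereas the groups of complex II overlap.

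In complex I, 11 of 37 members fell with AdipoRon and 6 with AdipoRonPEG5, all of them accessory subunits, which surround the catalytic core. Medians were -0.22 and -0.12 on the log2 scale. Ndufa2, a thioredoxin-fold subunit of the matrix arm, stood at 137, 135 and 156 CPM in vehicle libraries 1 to 3, 93.7, 102 and 109.6 CPM in AdipoRon libraries 1 to 3 and 129, 122 and 115 CPM in AdipoRonPEG5 libraries 1 to 3. Each AdipoRon library was below every vehicle and every AdipoRonPEG5 library. Ndufa2 fell by 28.6% with AdipoRon (log2 fold change -0.49 ± 0.087 (SE), edgeR adjusted p = 0.0121), the lowest log2 fold change of the members in that comparison, and this call held in all 20 alternatives tried. With AdipoRonPEG5 its log2 fold change was -0.23 ± 0.087 (adjusted p = 0.0984).

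Ndufa7, also of the matrix arm, differed between the compounds. It was at 103, 109 and 109 CPM with vehicle, 78.1, 81.3 and 80.9 CPM with AdipoRon and 108, 104 and 94 CPM with AdipoRonPEG5, so that the AdipoRon libraries were lowest and the AdipoRonPEG5 libraries overlapped with vehicle. It fell by 24.9% with AdipoRon (log2 fold change -0.41 ± 0.071, edgeR adjusted p = 0.0104; 0.0705 with the length trend removed) and was at -0.066 ± 0.071 with AdipoRonPEG5 (adjusted p = 0.568). Ndufb7, a subunit of the membrane arm that faces the intermembrane space, was at 93, 97.2 and 104 CPM with vehicle, 73.9, 70.9 and 79.1 CPM with AdipoRon and 82.1, 82.1 and 83 CPM with AdipoRonPEG5. Both treated groups lay below vehicle, without overlap. It fell by 23.7% with AdipoRon (edgeR adjusted p = 0.0126; 0.0524 without AdipoRon 2) and by 15.8% with AdipoRonPEG5 (adjusted p = 0.0347; 0.076 to 0.101 without vehicle 2, vehicle 3 or any AdipoRonPEG5 library). The window of Ndufb7 printed above holds an ETS match, and that of Ndufa7 none of the 4 motifs.

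Membrane-arm subunits made up most of the other named falls in complex I. Ndufb9, an accessory subunit of the LYR family, went from 240.1 ± 10.9 CPM in vehicle to 184 ± 7.67 CPM with AdipoRon (SD, n = 3; log2 fold change -0.39 ± 0.072, edgeR adjusted p = 0.0144) and 208 ± 2.36 CPM with AdipoRonPEG5, where it did not pass (adjusted p = 0.0693). Ndufb5 fell with both, to 48.3 ± 1.09 and 51.4 ± 3.93 CPM from 62.4 ± 3.34 CPM (log2 fold changes -0.37 ± 0.076 and -0.28 ± 0.076, edgeR adjusted p = 0.0226 and 0.0301). Ndufb11 fell with AdipoRon (-0.30 ± 0.066, edgeR adjusted p = 0.0272). Ndufa13, known also as GRIM-19, and Ndufa5, of the module that binds ubiquinone, fell with AdipoRonPEG5 (-0.27 ± 0.075 and -0.30 ± 0.086, edgeR adjusted p = 0.0327 and 0.0343). With AdipoRon, Ndufa13 also fell (-0.30 ± 0.075, adjusted p = 0.0468) and Ndufa5 had -0.31 ± 0.086 (adjusted p = 0.0617). All 6 AdipoRonPEG5 calls of complex I ended without vehicle 2, and 5 each without AdipoRonPEG5 2 and AdipoRonPEG5 3 (adjusted p over all 9 such fits from 0.0533 to 0.142). Of the 11 complex I calls with AdipoRon, 9 ended in at least 1 fit that left out a library (adjusted p from 0.0516 to 0.143), 8 of them without vehicle 2, 8 without AdipoRon 1 and 8 without AdipoRon 2. Ndufa4, the most abundant message named for complex I, was at 371, 364 and 370.2 CPM with vehicle, 289, 309 and 302 CPM with AdipoRon and 385, 385 and 339 CPM with AdipoRonPEG5. Its AdipoRon libraries lay below both other groups, yet neither comparison with vehicle passed in edgeR (adjusted p = 0.0595 with AdipoRon and 0.975 with AdipoRonPEG5). With AdipoRon it was called lower by DESeq2 (adjusted p = 0.00421) and limma-voom (0.0399).

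No core subunit of complex I passed in edgeR, DESeq2 or limma-voom. The 7 nuclear-encoded core subunits, among them the carriers of the flavin and the iron-sulfur clusters, were grouped after their values were seen and are given without a test. Their median log2 fold changes were -0.20 with AdipoRon and -0.12 with AdipoRonPEG5. The 30 other tested members of complex I had medians of -0.27 and -0.12. Over complexes I, II, III and V, 18 genes were taken as core subunits, also after their values were seen. They had medians of -0.11 and -0.12 and no call, and all 22 and 14 calls were among the other 60 members (medians -0.29 and -0.18). For complex V the group held Atp5a1, Atp5b, Atp5c1 and Atp5d. It left out Atp5e, which was called with AdipoRon, so the absence of calls depends on this choice. Of the 18 core subunits, 5 with AdipoRon and 2 with AdipoRonPEG5 had an unadjusted p under 0.05 by edgeR, all lower; DESeq2 called 1 of them lower with each compound, and limma-voom 1 with AdipoRon. With the length trend removed, the core median with AdipoRon was -0.02 and that of the other members -0.12, while with AdipoRonPEG5 the core median was -0.10 and that of the others -0.11.

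Complex II, which oxidises succinate and belongs to both the respiratory chain and the citrate cycle, had no call among its 4 genes. Sdhb, the member with the lowest p for AdipoRonPEG5, was at 255, 255 and 220.1 CPM in vehicle libraries 1 to 3, 219.8, 212 and 236 CPM in AdipoRon libraries 1 to 3 and 204, 212 and 206 CPM in AdipoRonPEG5 libraries 1 to 3. The AdipoRonPEG5 libraries were below all vehicle libraries, and the AdipoRon libraries overlapped with them. Its log2 fold change was -0.23 ± 0.083 with AdipoRonPEG5 (edgeR adjusted p = 0.0808) and -0.13 ± 0.083 with AdipoRon (adjusted p = 0.402). With AdipoRonPEG5, 1 of the 4 genes had an unadjusted p under 0.05 by edgeR and by limma-voom, while DESeq2 called 1 and limma-voom none; with AdipoRon, none had an unadjusted p under 0.05 by any of the 3 tools and none was called. The median log2 fold change was -0.12 with AdipoRonPEG5 and -0.11 with AdipoRon, and the latter became 0.0054 with the length trend removed.

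In complex III, 3 of 8 members fell with AdipoRonPEG5 and 1 with AdipoRon. Uqcrh, the hinge protein between cytochrome c1 and cytochrome c, was at 161, 171 and 166 CPM with vehicle, 126, 138 and 137 CPM with AdipoRon and 144, 138 and 135 CPM with AdipoRonPEG5, and all treated libraries were below all vehicle libraries. It fell by 19.6% with AdipoRon (log2 fold change -0.31 ± 0.069, edgeR adjusted p = 0.0286) and by 16.2% with AdipoRonPEG5 (-0.26 ± 0.069, adjusted p = 0.0287). Its window holds an ETS match close to the start. Uqcrq, a small subunit at the ubiquinone-binding side, was at 527, 530.0 and 590.3 CPM with vehicle, 393, 446 and 443 CPM with AdipoRon and 460.3, 442 and 372 CPM with AdipoRonPEG5. Uqcr11, another small subunit, was at 248, 253 and 271 CPM with vehicle, 192, 222 and 197 CPM with AdipoRon and 217, 212 and 190.3 CPM with AdipoRonPEG5. In both genes each treated library was below each vehicle library, and both fell with AdipoRonPEG5 (-0.37 ± 0.10 and -0.32 ± 0.087, edgeR adjusted p = 0.0321 and 0.0312) but did not pass with AdipoRon (-0.36 ± 0.10 and -0.34 ± 0.087, adjusted p = 0.0695 and 0.0521). All 3 AdipoRonPEG5 calls ended without vehicle 2, without AdipoRonPEG5 2 and without AdipoRonPEG5 3, and 2 of them without vehicle 3 (adjusted p from 0.0601 to 0.105). The AdipoRon call of Uqcrh ended without vehicle 1, vehicle 2, any AdipoRon library or AdipoRonPEG5 2 (0.0541 to 0.104). The rest of complex III did not pass in edgeR. DESeq2 called 4 of the 8 lower with AdipoRonPEG5 and 5 with AdipoRon, and limma-voom 3 and 2.

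In complex IV, 5 of 12 tested members fell with AdipoRon and 2 with AdipoRonPEG5. The catalytic core of this complex is mitochondrially encoded, and the nuclear members surround it. Cox6c, a small subunit with a single membrane helix, was at 346, 332 and 332 CPM with vehicle, 254, 278 and 257 CPM with AdipoRon and 278, 262 and 228 CPM with AdipoRonPEG5. All treated libraries were below all vehicle libraries. It fell by 24% with AdipoRonPEG5 (log2 fold change -0.40 ± 0.089, edgeR adjusted p = 0.0124), a call lost in 1 of 20 alternatives, under library totals (adjusted p = 0.051). With AdipoRon it fell by 21.8% (-0.35 ± 0.089, adjusted p = 0.0464), a call that ended without any single library except AdipoRonPEG5 3 (0.0513 to 0.142).

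Cox5b, the zinc-binding subunit on the matrix side, was at 281, 289 and 295 CPM with vehicle, 212, 224 and 228 CPM with AdipoRon and 255, 244 and 250.2 CPM with AdipoRonPEG5. The groups followed in the order vehicle, AdipoRonPEG5, AdipoRon without overlap. It fell with AdipoRon by 23.2% (-0.38 ± 0.072, edgeR adjusted p = 0.0148; 0.0579 without vehicle 2, 0.0584 without AdipoRon 1 and 0.179 with the length trend removed), and had -0.21 ± 0.071 with AdipoRonPEG5 (adjusted p = 0.0699). Cox4i1 fell with AdipoRon from 388 ± 8.67 to 301 ± 6.58 CPM (-0.37 ± 0.072, edgeR adjusted p = 0.0182; 0.0579 without vehicle 2, 0.0632 without AdipoRon 1 and 0.0542 without AdipoRon 2), and Cox6b1, which links the dimer on the outer face, from 243 ± 6.96 to 195 ± 10.6 CPM (-0.32 ± 0.074, adjusted p = 0.034). Cox8a was the fifth (-0.29 ± 0.069, adjusted p = 0.0371). All 5 AdipoRon calls of complex IV ended without vehicle 2 and without AdipoRon 1. Cox7b fell with AdipoRonPEG5 (-0.33 ± 0.091, edgeR adjusted p = 0.0306; 0.0737 to 0.0817 without vehicle 1, vehicle 2, AdipoRonPEG5 2 or AdipoRonPEG5 3). The most abundant member, Cox6a1, was at 629.8, 623 and 630.5 CPM with vehicle, 524, 527 and 570.4 CPM with AdipoRon and 619.5, 607 and 618 CPM with AdipoRonPEG5; it had -0.22 ± 0.077 with AdipoRon (adjusted p = 0.131) and -0.03 ± 0.077 with AdipoRonPEG5 (adjusted p = 0.831). In edgeR neither comparison passed for Cox7a2 or Cox7a2l, while DESeq2 called both lower with AdipoRon (adjusted p = 0.0241 and 0.0238) and limma-voom Cox7a2l (0.0474). Of the 12 tested members of complex IV, DESeq2 called 9 lower with AdipoRon and 6 with AdipoRonPEG5, and limma-voom 6 and 5.

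In complex V, 5 of 17 members fell with AdipoRon and 3 with AdipoRonPEG5. Atp5k, subunit e, which sits in the membrane where synthase dimers meet, was at 149.6, 158 and 165 CPM with vehicle, 117, 129.5 and 117 CPM with AdipoRon and 121, 122 and 84.5 CPM with AdipoRonPEG5. AdipoRonPEG5 3 was the lowest library, and all treated libraries were below vehicle. Atp5k fell by 30.6% with AdipoRonPEG5 (log2 fold change -0.53 ± 0.13, edgeR adjusted p = 0.0164; 0.0507 without vehicle 2, the only alternative of 20 in which it was lost) and did not pass with AdipoRon (-0.38 ± 0.13, adjusted p = 0.107). The NRF1 letters printed above belong to this gene.

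Atp5sl, which in spite of its name is known as an assembly factor of the complex I membrane arm, was at 59.2, 61.2 and 57.7 CPM with vehicle, 47.5, 49.7 and 48.9 CPM with AdipoRon and 40.9, 46.5 and 43.5 CPM with AdipoRonPEG5. The groups did not overlap, in the order vehicle, AdipoRon, AdipoRonPEG5. It had the lowest adjusted p of all members with AdipoRonPEG5, where it fell by 26.5% (-0.44 ± 0.07, edgeR adjusted p = 0.00227), and that call held in all 20 alternatives. With AdipoRon it fell by 18% (-0.29 ± 0.07, adjusted p = 0.0424; 0.0504 to 0.13 without vehicle 1, vehicle 2, any AdipoRon library, AdipoRonPEG5 2 or AdipoRonPEG5 3). Atp5h, subunit d of the peripheral stalk, fell with both, from 255 ± 2.61 CPM to 209.8 ± 3.97 CPM with AdipoRon and 212 ± 2.94 CPM with AdipoRonPEG5 (edgeR adjusted p = 0.037 and 0.0199; the latter 0.0699 without vehicle 2, 0.0534 without AdipoRonPEG5 1 and 0.076 without AdipoRonPEG5 2). Atp5j2, subunit f, and Atp5e, the epsilon subunit of the central stalk, fell with AdipoRon (-0.38 ± 0.08 and -0.36 ± 0.082, edgeR adjusted p = 0.0246 and 0.032). All 5 AdipoRon calls ended without vehicle 1, without vehicle 2, without AdipoRon 1 and without AdipoRon 2 (adjusted p up to 0.13). Atp5b was at 1313, 1264 and 1212 CPM with vehicle, 1281, 1255 and 1258 CPM with AdipoRon and 1177, 1209 and 1315 CPM with AdipoRonPEG5, where the groups overlapped, and its log2 fold changes were 0.0019 ± 0.085 with AdipoRon and -0.034 ± 0.085 with AdipoRonPEG5 (adjusted p = 0.995 and 0.828). None of Atp5g1, Atp5g2 and Atp5g3 passed in either comparison in edgeR, while Atp5g1 was called lower with AdipoRon by DESeq2 (adjusted p = 0.00817) and limma-voom (0.0386).

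**Figure D5:**
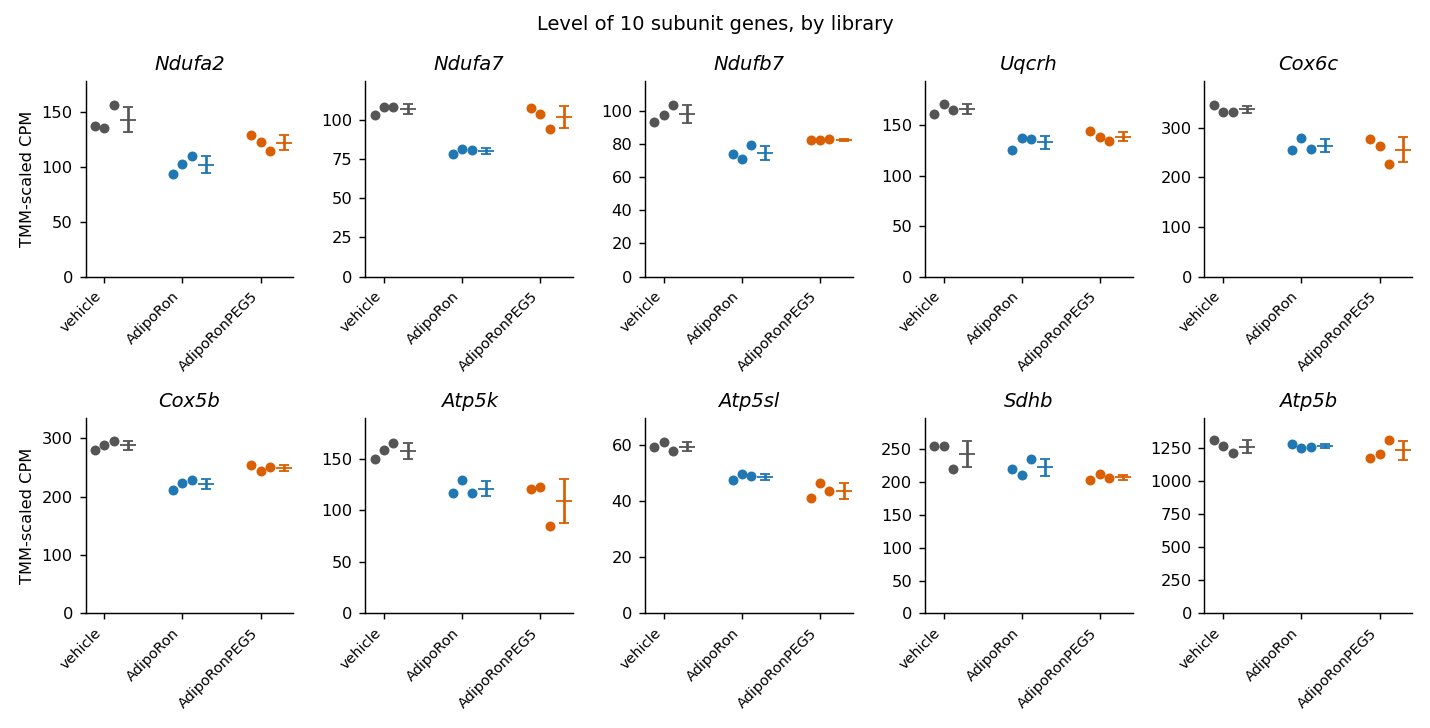
TMM-scaled CPM of 10 members, with 1 point per library and the mean with SD of 3 libraries beside them, for vehicle, AdipoRon and AdipoRonPEG5 livers; each axis starts at 0. The AdipoRon libraries of Ndufa7 lie at 78.1, 81.3 and 80.9 CPM, below both other groups, whereas the groups of Atp5b overlap.

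The second question was whether the PEGylated compound and AdipoRon, which differ by the PEG modification, gave different levels of these genes. This is 1 pair of compounds, and the labels give both the same sentence on dose, schedule and duration. Ndufa7 was the only member called by edgeR: it was higher with AdipoRonPEG5 than with AdipoRon (log2 difference 0.35, 95% confidence interval 0.19 to 0.50, edgeR adjusted p = 0.0219), and each AdipoRonPEG5 library exceeded each AdipoRon library. That is 1 of 78 (1.28%), against 2.68% of all tested genes higher and 2.71% lower. The call ended without any single AdipoRon library, without AdipoRonPEG5 1 and without AdipoRonPEG5 2 (adjusted p from 0.0528 to 0.0825), and with the length trend removed, where the difference was 0.25.

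No member was lower with AdipoRonPEG5 than with AdipoRon by edgeR, DESeq2 or limma-voom, and 3 had an unadjusted p under 0.05 in that direction by edgeR. DESeq2 called 3 of 78 members higher and limma-voom 2, with Ndufa4 among them in both (adjusted p = 0.00365 by DESeq2 and 0.0379 by limma-voom). Of all 13151 tested genes, DESeq2 called 508 higher and limma-voom 377, so the counts of members are near the share over all genes. The median log2 difference of the members was 0.080 (all tested genes -0.013), with 19 of 78 below 0, and turned to -0.016 with the length trend removed. By complex it was 0.091, -0.058, 0.027, 0.12 and 0.11 from I to V. Among abundant members, Ndufa4 had a difference of 0.30 (95% confidence interval 0.12 to 0.48, adjusted p = 0.0558), Cox6a1 of 0.19 (0.016 to 0.36, adjusted p = 0.19) and Atp5b of -0.036 (-0.22 to 0.15, adjusted p = 0.851). Those of Cox6c and Atp5h were -0.041 (-0.24 to 0.15) and 0.015 (-0.13 to 0.16).

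Other genes of the chain and its surroundings came from lists chosen with earlier results of these data known. Their counts stand against 7.63% of all tested genes lower with AdipoRonPEG5 and 1.40% lower with AdipoRon. Called higher were 9.55% and 3.80%. Between the compounds, 2.68% were higher and 2.71% lower with AdipoRonPEG5. Of 12 further subunits and electron carriers outside the name rule, 2 fell with AdipoRonPEG5 and 1 with AdipoRon (medians -0.13 and -0.16). They were Usmg5, a small membrane subunit of complex V (-0.32 ± 0.08, edgeR adjusted p = 0.0208), and Higd1a, a factor that associates with complexes III and IV (-0.29 ± 0.082, adjusted p = 0.0331), with AdipoRonPEG5. With AdipoRon it was Etfb, which passes electrons from fatty acid oxidation (-0.33 ± 0.084, adjusted p = 0.0478). Among assembly factors, 1 of 14 for complex I fell with AdipoRonPEG5, Ndufaf4 (-0.33 ± 0.10, adjusted p = 0.0465). With AdipoRon, Uqcc2, 1 of 10 for complexes II, III and V (-0.34 ± 0.085, adjusted p = 0.0429), and Coa4, 1 of 20 for complex IV (-0.75 ± 0.16, adjusted p = 0.0228), fell. Between the compounds, Cox19, a factor of copper supply to complex IV, was higher with AdipoRonPEG5 (0.32 ± 0.08, adjusted p = 0.0456). Of 14 citrate cycle enzymes, Idh3a fell with AdipoRonPEG5 (-0.39 ± 0.092, adjusted p = 0.0151) and no other passed in edgeR with that compound, where 1 was higher and 5 were lower at an unadjusted p under 0.05. DESeq2 called 1 higher (Dlst) and 2 lower (Idh3a and Idh3b), and limma-voom 1 higher (Dlst) and 1 lower (Idh3a). With AdipoRon none of the 14 enzymes was called by edgeR, DESeq2 or limma-voom, and 2 were lower at an unadjusted p under 0.05. Medians of the assembly factors and enzymes were -0.11, -0.15, -0.10 and -0.15 with AdipoRonPEG5 and -0.15, -0.14, -0.13 and -0.067 with AdipoRon, in the order complex I, complexes II, III and V, complex IV and citrate cycle.

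The mitochondrially encoded subunits had medians on the other side of 0. Of 13, 1 rose and 1 fell with AdipoRonPEG5 and none passed with AdipoRon (medians 0.070 and 0.034). With AdipoRonPEG5 these counts are near the shares over all tested genes, 9.55% higher and 7.63% lower. At an unadjusted p under 0.05, 2 were higher and 1 lower with AdipoRon by edgeR; DESeq2 called 1 higher and 1 lower there, and limma-voom 1 higher. mt-Nd1, a core membrane subunit of complex I, rose from 4862 ± 174 CPM to 7039 ± 530.3 CPM (0.53 ± 0.10, edgeR adjusted p = 0.00551). mt-Nd3, another, was at 42.6, 33.8 and 43.8 CPM with vehicle, 54.7, 47.7 and 48.5 CPM with AdipoRon and 28.4, 31.3 and 32.2 CPM with AdipoRonPEG5. It fell with AdipoRonPEG5 (-0.39 ± 0.11, adjusted p = 0.0297), had 0.33 ± 0.11 with AdipoRon (adjusted p = 0.0993), and was lower with AdipoRonPEG5 than with AdipoRon (-0.72 ± 0.11, adjusted p = 0.00573). At the level of the summed counts, the 13 genes ran from 41416 to 46615 CPM in vehicle, 41631 to 45328 CPM in AdipoRon and 44837 to 53459 CPM in AdipoRonPEG5 libraries.

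None of 15 regulators of respiratory chain genes passed in either comparison with vehicle by edgeR, DESeq2 or limma-voom (medians -0.17 with AdipoRonPEG5 and -0.078 with AdipoRon). At an unadjusted p under 0.05 by edgeR, 2 were lower with AdipoRonPEG5, and 1 was higher and 1 lower with AdipoRon. Between the compounds, 2 were lower with AdipoRonPEG5 than with AdipoRon. They were Ppargc1b, a coactivator of mitochondrial genes (6.45, 6.2 and 10.3 CPM with vehicle, 14.9, 12 and 8.4 CPM with AdipoRon and 5.73, 5.71 and 5.61 CPM with AdipoRonPEG5; -1.05 ± 0.23, edgeR adjusted p = 0.0271), and Creb1 (-0.37 ± 0.085, adjusted p = 0.0314). Of 15 proteins of mitochondrial membranes and import, Tomm40, the pore of the outer membrane (-0.38 ± 0.079, edgeR adjusted p = 0.00805), and Timm44 (-0.26 ± 0.078, adjusted p = 0.0445) fell with AdipoRonPEG5 and Tomm22 with AdipoRon (-0.32 ± 0.077, adjusted p = 0.0395).

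Of these calls outside the name rule, mt-Nd1 and Tomm40 with AdipoRonPEG5 and mt-Nd3 between the compounds held in all 20 alternatives. Idh3a was lost without AdipoRonPEG5 1 or AdipoRonPEG5 3 (edgeR adjusted p = 0.0542 in both), Usmg5 without vehicle 2, AdipoRonPEG5 1 or AdipoRonPEG5 3 (0.0559 to 0.0729), Higd1a without vehicle 2, vehicle 3, AdipoRonPEG5 1 or AdipoRonPEG5 3 (0.063 to 0.104) and Coa4 without vehicle 1, AdipoRon 1 or AdipoRon 2 (0.0618 to 0.0736). Ndufaf4, Timm44, Etfb, Uqcc2, Tomm22, Cox19, Ppargc1b, Creb1 and the AdipoRonPEG5 call of mt-Nd3 were each lost in 5 to 9 of the 9 fits without 1 library (0.0507 to 0.158). These losses were not limited to the fits without a library. With library totals, Usmg5 (0.111), Higd1a (0.136) and Idh3a (0.0594) were lost as well. So were Ndufaf4, Timm44, Etfb, Uqcc2, Tomm22, Cox19 and the AdipoRonPEG5 call of mt-Nd3 (0.077 to 0.217). With vehicle 3 and AdipoRonPEG5 1 left out together, Usmg5 (0.062), Higd1a (0.104), Idh3a (0.0687) and Coa4 (0.0528) were lost. Etfb, Uqcc2, Tomm22, Cox19, Creb1 and the AdipoRonPEG5 call of mt-Nd3 were lost there too (0.0647 to 0.163). With only the groups compared, Higd1a (0.0529) and Coa4 (0.0548) did not pass, nor did Ndufaf4, Timm44, Etfb, Uqcc2, Tomm22 and Cox19 (0.0507 to 0.101). With the length trend removed, Usmg5 was at -0.14 (adjusted p = 0.283), mt-Nd3 with AdipoRonPEG5 at -0.21 (0.316), and, with AdipoRon, Etfb at -0.18 (0.243), Uqcc2 at -0.17 (0.27) and Tomm22 at -0.18 (0.202). Between the compounds, Cox19 was then at 0.29 (0.0619) and Creb1 at -0.27 (0.0946). Some of these calls were also lost with the replicate block, without the filter or with vehicle 1 thinned.

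Markers of other cells moved with the groups. For comparison, 9.55% of all tested genes were called higher and 7.63% lower with AdipoRonPEG5, and 3.80% and 1.40% with AdipoRon. All 10 tested macrophage and Kupffer cell markers rose with AdipoRonPEG5 and 9 with AdipoRon, and their sum ran from 186 to 270.3 CPM in vehicle, 446 to 790 CPM in AdipoRon and 691 to 725 CPM in AdipoRonPEG5 libraries. The AdipoRon count was 6 without vehicle 2. Of 3 tested lymphocyte markers, 3 rose with AdipoRonPEG5 and 2 with AdipoRon. The latter count was 0 without vehicle 1, vehicle 2, AdipoRon 1 or AdipoRon 3, and 1 in each other fit without a library. By limma-voom, 1 of these markers was higher with AdipoRon. Their levels were low: the 4 listed lymphocyte markers summed to 0.372 to 0.719 CPM in vehicle, 1.89 to 3.27 CPM in AdipoRon and 2.80 to 4.07 CPM in AdipoRonPEG5 libraries. Of 8 hepatocyte markers, 4 fell with AdipoRonPEG5 (2 without vehicle 2, 1 without AdipoRonPEG5 1 and 1 without AdipoRonPEG5 2). With AdipoRon none passed by edgeR or limma-voom and 2 were lower by DESeq2, as at an unadjusted p under 0.05. Their sum ran from 81515 to 94240 CPM in vehicle, 70404 to 80351 CPM in AdipoRon and 76291 to 85056 CPM in AdipoRonPEG5 libraries. Of the markers of other cells, 1 of 4 endothelial markers rose and 1 of 2 tested white fat markers fell with AdipoRonPEG5, calls that were each lost in 4 of the 9 fits without 1 library, and no stellate, cholangiocyte or tested brown fat marker passed against vehicle in edgeR with all 9 libraries. At an unadjusted p under 0.05, 4 of 4 stellate and 1 of 4 cholangiocyte markers were higher and 1 of 2 brown fat markers was lower with AdipoRonPEG5; DESeq2 called 1 and limma-voom 2 stellate markers. The part of these markers in the lower levels of the subunit genes was not tested.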

How the data were processed

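Liver RNA was sequenced in 9 libraries, 3 each of vehicle, AdipoRon and AdipoRonPEG5. The authors deposited 1 table with a read count and an FPKM value for each gene and library. Per the submitters' processing notes, edgeR, DESeq2, HTSeq 0.6.1, TopHat and STAR 2.5 were used, in steps the notes do not specify here. Which build and gene models were used, whether counting was stranded and how reads with several matches were treated remains unstated in the sources used here. From the deposited counts and FPKM values, the gene length behind each FPKM was recovered (99.99% of values gave a whole number of bases within 0.01).

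Counts were fitted with edgeR 4.0.16 in R 4.3.3: TMM scaling, filterByExpr (13151 genes left), 3 group means over all 9 libraries, the quasi-likelihood test, and Benjamini-Hochberg adjustment over all tested genes at 0.05. CPM values are scaled by TMM unless said otherwise. The steps were tested on simulated data. DESeq2 1.42.0, limma 3.58.1, scaling, filter, block, thinning of vehicle 1, gene length and left-out libraries were the alternatives. Total counts of 13942322 to 39473195 per library set the precision of each gene, and medians of members are given without a test.

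The members and gene lists were chosen with earlier results of these data known. Named are the members called in any comparison (the 12 with the lowest p), the most abundant member and the one with the lowest AdipoRonPEG5 p in each complex, paralogs of a subunit, and up to 4 called genes of each other list. Promoter windows are the 250 bases before the start in RefSeq (GRCm38.p6), matched by symbol or gene ID for 69 of 84 members.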

Additional observations from a re-analysis of the deposited data

How the results depend on the processing

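The median log2 fold changes of the members, over all complexes and in each, kept their direction against vehicle in every alternative, except complex II with AdipoRon, whose median was 0.0054 with the gene length trend removed. The counts of called members did not keep their size. Single members, such as Ndufa4, Atp5b and Atp5g2, changed sign in some settings without a call. With AdipoRon, for example, removing the length trend took Atp5g2 from -0.143 to 0.0256 and Atp5g3 from -0.149 to 0.0024. No called member changed direction in any alternative.

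For AdipoRonPEG5 against vehicle, the 14 lower members became 2 with library totals, 9 without the filter on low counts (with 1 higher, Cox6a2), 25 with DESeq2, 6 with only the groups compared, and 9 with vehicle 3 and AdipoRonPEG5 1 left out together. For AdipoRon the 22 became 4, 14, 38, 9 and 12 in the same order, and 4 with the length trend removed. Of all genes tested in these fits, 4.44%, 4.68%, 8.39%, 6.60% and 6.23% were lower with AdipoRonPEG5. With AdipoRon the shares were 0.487%, 1.03%, 2.78%, 0.544% and 1.06%, and 0.677% with the length trend removed. Between the compounds, the 1 higher member became 2 without the filter, 2 when genes under a mean of 1 CPM were dropped, 3 with DESeq2, 2 with limma-voom, 2 with only the groups compared, 0 with the same pair of libraries left out and 0 with the length trend removed. Over all genes, 879, 718, 1008, 711, 880, 654 and 524 were called in either direction in these fits, in the same order. Over the fits without 1 library, lower members ran from 2 to 13 with AdipoRonPEG5 and from 3 to 27 with AdipoRon, and higher members from 0 to 3 between the compounds; no fit without a library gave a higher member against vehicle.

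With library totals the members' median was -0.057 with AdipoRonPEG5 (complex I -0.033, III -0.11, IV -0.11, V -0.059) and -0.15 with AdipoRon (complex I -0.12, III -0.17, IV -0.19, V -0.16). With the length trend removed it was -0.11 with AdipoRonPEG5 (complex IV -0.10) and -0.096 with AdipoRon (complex I -0.074, III -0.085, IV -0.12, V -0.14), and between the compounds -0.016 (complex I -0.0040, III -0.055, IV 0.017, V 0.040). Over the fits without 1 library, the complex medians with AdipoRon ran from -0.26 to -0.20 in complex I and from -0.30 to -0.25 in complex IV, and the complex V median between the compounds from 0.063 to 0.12.

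With the replicate number as a replicate block, 5 members were lower with AdipoRonPEG5, 5 with AdipoRon and 0 differed between the compounds. Of all tested genes, 5.47% were then lower with AdipoRonPEG5 and 0.601% with AdipoRon. The labels share these numbers across groups, which the fit in the report does not use. The labels do not say what the numbers share. Same-numbered libraries had correlations of deviations from -0.268 to 0.077, and differently numbered ones from -0.299 to 0.316. As the deviations are taken from means of 3 libraries, these values cannot decide whether the numbers pair the samples.

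With 3 libraries a group, most members lay close to the threshold: 1 of the 14 AdipoRonPEG5 calls and 1 of the 22 AdipoRon calls held in all 20 alternatives, and 14 of the 22 held in fewer than 10. Paralogs listed at 0 to 3 counts could not be compared between groups. The cause of each shift was not tested.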

Other observations

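Cox6a2, the heart and muscle form of a complex IV subunit, had too few counts for the test in the report. Its counts were 0, 0 and 0 in vehicle libraries 1 to 3, 0, 1 and 0 in AdipoRon libraries 1 to 3 and 8, 11 and 12 in AdipoRonPEG5 libraries 1 to 3. Pooled over each group, AdipoRonPEG5 stood at 0.599 CPM, and 3 counts over the vehicle group would be 0.0456 CPM. The ratio of these values is 13.1, with a 95% interval of 8.93 to 18.6 for counting error in the AdipoRonPEG5 counts. The interval covers counting error only, and the ratio rests mostly on vehicle 1, the deepest library. Without vehicle 1, an alternative chosen after seeing the data, 3 counts over the vehicle group would be 0.112 CPM and the ratio 5.36 (interval 3.64 to 7.61). Without the filter on low counts, edgeR's quasi-likelihood test gave an adjusted p of 0.00105 against vehicle and 0.0136 against AdipoRon.

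In the RefSeq annotation (GRCm38.p6) Cox6a2 overlaps Itgad, an integrin gene of leukocytes, by 70 bases. Itgad had 0, 0 and 1 counts with vehicle, 0, 1 and 1 with AdipoRon and 1, 2 and 0 with AdipoRonPEG5. Itgax, a nearby integrin gene, had 21, 6 and 6, then 13, 2 and 8, and 19, 21 and 31 counts in the same order. Of 8 skeletal and heart muscle markers, 6 had no count in any library, and their sum did not exceed 0.0747 CPM. Cox6a2 was singled out after its values were seen.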
